A study of Mus musculus with 77 samples.

Results

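Expression of 10 T cell genes was followed in the blood of C57BL/6Crl (B6) and DBA/2Crl (D2) mice after chronic social defeat stress (CSDS). These strain names are spelled as in the labels, and the paper writes them as C57BL/6NCrl and DBA/2NCrl. The 10 members were taken by symbol from the blood mRNA table: Cd3e, Cd3d, Cd3g, Cd4, Cd8a, Cd8b1, Lck, Tcf7, Lef1 and Il7r. They were 10 of the 13084 genes in that table, and no member was missing from it. The choice of members used no measured difference between groups, but it was made with earlier results of these data known.

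T cells recognise antigen through a receptor whose variable chains are carried to the surface by the invariant CD3 chains. The co-receptors CD4 and CD8 split circulating T cells into helper and cytotoxic lineages, and the kinase LCK, bound to either co-receptor, starts the signal inside the cell. Resting naive T cells in blood additionally depend on the transcription factors TCF-1 and LEF-1 and on interleukin-7, a survival signal read through its receptor.

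In CSDS a male mouse is repeatedly defeated by a larger aggressor and is then kept beside it behind a divider. Defeated mice were scored in a social avoidance test and called stress-susceptible or resilient relative to same-strain controls, so phenotype was an observed behaviour and not an assigned treatment. For sequencing the paper took defeated mice at the extremes of these scores, and controls with scores nearest the mean. Its timeline also places a forced swim test before tissue collection. Trunk blood was collected from 8-week-old males 6 to 8 days after the last defeat. The 5 blood groups held 5 mice each: undefeated B6 controls, defeated B6 resilient mice, defeated B6 susceptible mice, undefeated D2 controls and defeated D2 susceptible mice. Controls of both strains were housed beside an unfamiliar mouse behind the same kind of divider without physical contact. No transgene or drug was involved in any group, and D2 resilient mice were not analysed here.

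Of the D2 mice 2 carried a group letter in the expression table that differed from their label. These were the mouse labelled D2 control replicate 2, lettered as susceptible, and the mouse labelled D2 susceptible replicate 2, lettered as control. The labels were followed, and each comparison with D2 mice was repeated with the lettered groups and without these 2 mice.

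Values were on the log2 CPM scale, where CPM is the read count of a gene scaled to a fixed library total, after the authors had adjusted library size for composition. Between 9751603 and 15878495 reads per mouse were assigned to genes. Whole blood is dominated by red cell transcripts even after globin depletion, and 10 erythroid markers together took between 64622 and 302721 CPM per mouse. The ratio of adjusted library size to reads ran from 0.644 to 1.47 among B6 resilient mice, against 0.903 to 1.19 among B6 controls. In bulk blood, fewer T cells and less of a transcript per T cell cannot be told apart.

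T cell transcripts were present in every mouse. The 7 T cell receptor constant genes were all detected in every mouse, with a summed level between 101 and 251 CPM, and all 10 members had at least 3 reads in every mouse. Summed over the 10 members, the level was 262 to 370 CPM in B6 controls, 183 to 392 CPM in B6 resilient mice, 229 to 381 CPM in B6 susceptible mice, 312 to 426 CPM in D2 controls and 280 to 348 CPM in D2 susceptible mice. These ranges overlapped between all groups.

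The 3 CD3 genes lie side by side, which makes them a natural internal comparison for the expression results. On GRCm38, Cd3g occupies chr9:44969572-44980431 on the minus strand, Cd3d chr9:44981786-44987339 on the plus strand and Cd3e chr9:44998740-45009627 on the minus strand. Cd3g and Cd3d are transcribed away from each other with 1354 bases between them, and 11400 bases separate Cd3d from Cd3e. Their start regions are shown because the 3 neighbours did not all vary together across mice, as shown by their correlations. Each run is the 300 bases from 250 before to 50 after the RefSeq start on GRCm38.p6, read 5′ to 3′ on the gene's own strand. Capitals mark matches, on either strand, to a TCF/LEF core (CTTTGA or CTTTGT), a RUNX core (TGTGGT or TGCGGT) or an ETS core (CGGAAG or AGGAAG).
Cd3e: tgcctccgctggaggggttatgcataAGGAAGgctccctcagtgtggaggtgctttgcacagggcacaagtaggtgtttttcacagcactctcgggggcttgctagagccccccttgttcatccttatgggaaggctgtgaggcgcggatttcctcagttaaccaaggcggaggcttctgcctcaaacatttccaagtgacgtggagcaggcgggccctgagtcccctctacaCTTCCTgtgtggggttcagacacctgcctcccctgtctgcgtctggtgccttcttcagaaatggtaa
Cd3d: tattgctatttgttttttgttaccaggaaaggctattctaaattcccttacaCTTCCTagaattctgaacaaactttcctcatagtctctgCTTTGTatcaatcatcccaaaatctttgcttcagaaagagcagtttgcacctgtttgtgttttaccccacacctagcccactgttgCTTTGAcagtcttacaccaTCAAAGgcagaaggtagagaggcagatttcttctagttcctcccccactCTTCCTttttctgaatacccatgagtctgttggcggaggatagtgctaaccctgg
Cd3g: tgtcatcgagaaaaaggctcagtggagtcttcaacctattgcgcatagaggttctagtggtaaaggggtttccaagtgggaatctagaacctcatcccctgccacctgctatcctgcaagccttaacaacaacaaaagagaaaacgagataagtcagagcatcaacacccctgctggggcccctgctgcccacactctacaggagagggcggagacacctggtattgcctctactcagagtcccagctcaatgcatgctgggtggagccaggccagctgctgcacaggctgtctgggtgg
The Cd3e window (chr9:45009562-45009861) held 2 ETS cores and 0 TCF/LEF cores. The Cd3d window (chr9:44981536-44981835) held 3 TCF/LEF cores and 2 ETS cores. The Cd3g window (chr9:44980382-44980681) held none of these letters, and no RUNX core was present in any of the 3. Over all 32851 RefSeq promoter windows of this length, 31.2% held a TCF/LEF core, 22.4% a RUNX core and 46.5% an ETS core, so matches of this kind were common. Windows were found for 8 of the 10 members.

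The other members lie elsewhere, apart from the CD8 pair. Cd8b1 (chr6:71322788-71337494, plus strand) ends 35932 bases before Cd8a (chr6:71373427-71379173, plus strand), and Cd4 is on the same chromosome at chr6:124864692-124888221 on the minus strand. Lck is at chr4:129548344-129573641 (minus), Tcf7 at chr11:52252371-52283014 (minus), Lef1 at chr3:131110471-131224356 (plus) and Il7r at chr15:9505788-9530176 (minus). Exons of other genes overlapped 13.7% of the Lef1 exon bases, 3.3% of those of Cd3e and 0.9% of those of Lck. The antisense gene over Lef1, Gm43352, had between 2 and 27 reads per mouse. The strand setting of the read counting is not given in the sources used here, so reads of Lef1 and Gm43352 cannot be told apart.

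Level and precision differed widely among members. Per kilobase of exon, averaged over the 25 mice, the level on the log2 CPM per kb scale was highest for Lck (4.74), Cd3d (4.41) and Cd8b1 (4.33). It was intermediate for Il7r (3.34), Cd3g (3.34), Cd4 (2.47) and Cd8a (2.38), and lower for Tcf7 (1.44) and Lef1 (1.33). Cd3e was lowest, at -0.90, although its product is an obligate partner of the CD3D and CD3G chains. Cd3e was counted with 3 to 99 reads per mouse (median 29), against 225 to 1116 for Cd3d and 165 to 985 for Cd3g.

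The within-group SD on the log2 CPM scale, pooled over groups, was 0.78 for Cd3e and 0.76 for Tcf7. For the other 8 members it was between 0.26 (Cd8b1) and 0.34 (Lef1). Among genes of like mean level, 88.9% of 1376 genes had a smaller SD than Cd3e and 97.4% of 2000 a smaller SD than Tcf7. Differences between groups were therefore measured least precisely for these 2 members.

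**Figure D1:**
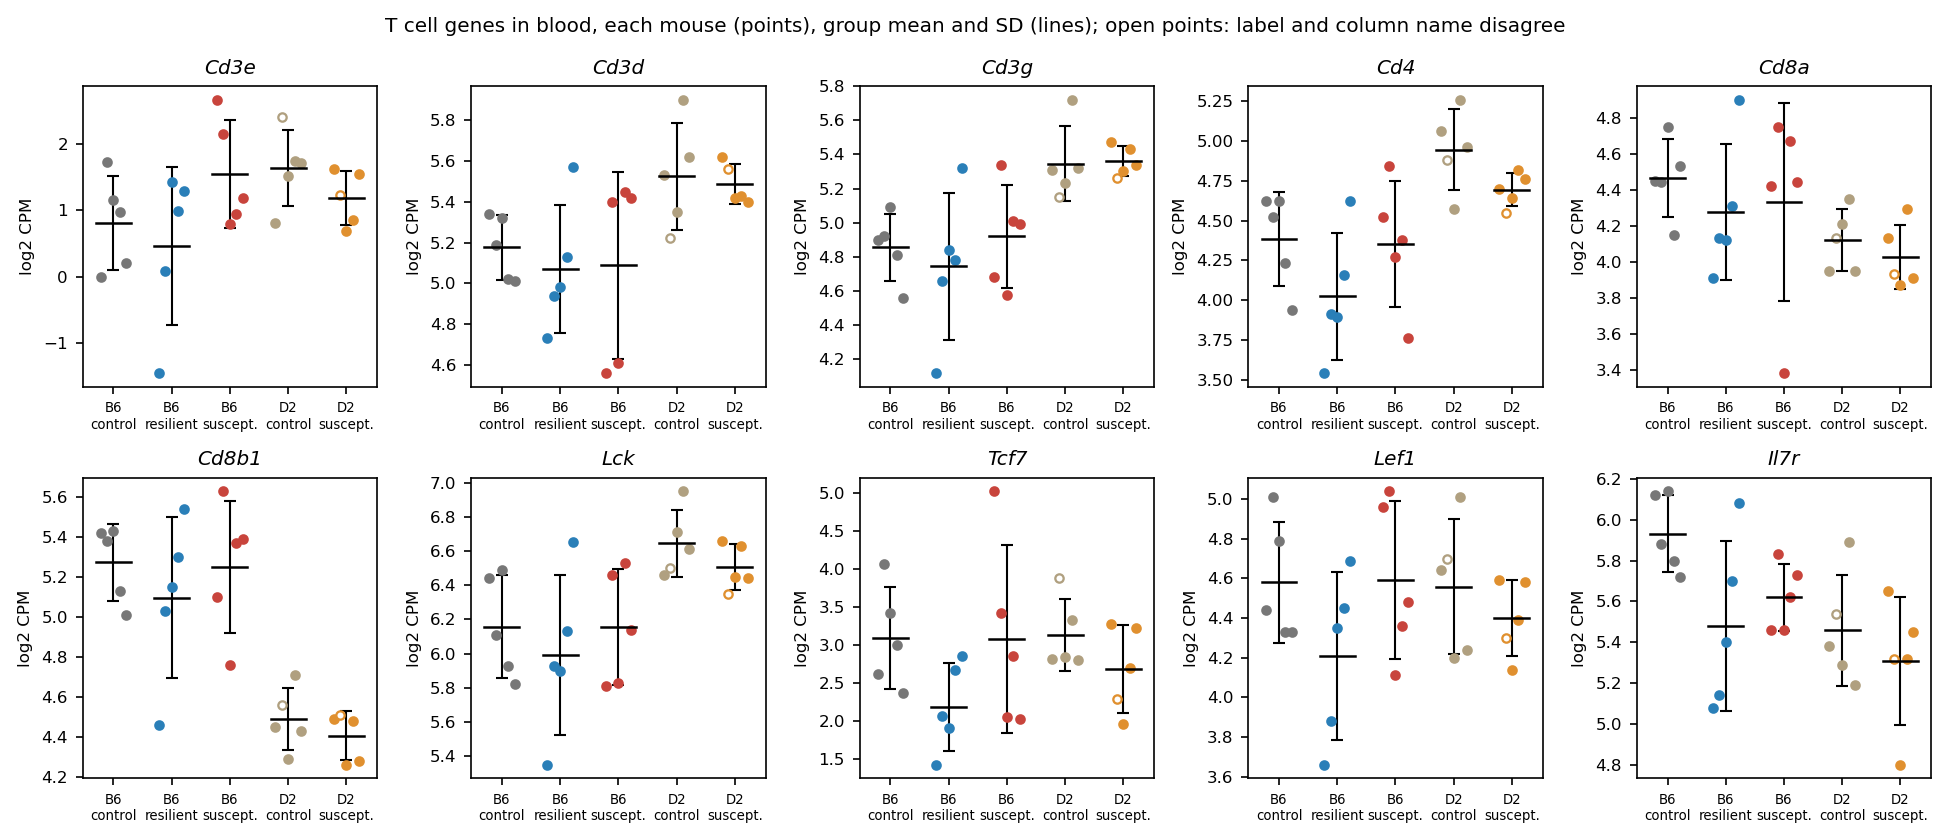
Log2 CPM (y axes) of each of the 10 members in each of the 25 mice, by group (x axes), with 1 point per mouse and the group mean and SD. Cd8b1 sits between 4.26 and 4.71 in all 10 D2 mice, Cd3e and Tcf7 spread over several log2 units within groups. Open points are the 2 mice whose label and table letter differ.

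More of these genes were called between strains than between defeated and control mice. In D2 controls compared to B6 controls, Cd8b1 was lower, Il7r was lower, and Cd4, Cd3g and Lck were higher. A member was called changed at a two-sided limma p under 0.05 with a fold of at least 1.2, the criteria of the study, and adjusted p-values are Benjamini-Hochberg values over all 13084 genes. By this rule 5 of 10 members were called, 3 higher and 2 lower. The background was high, since 26.4% of all genes were called in this comparison, 15% higher and 11.4% lower. With adjustment, 2 members (Cd8b1 and Cd4) and 2031 of all genes stayed under 0.05.

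Cd8b1 encodes the beta chain of the CD8 co-receptor, which on conventional cytotoxic T cells pairs with the alpha chain. Its log2 CPM was 5.42, 5.38, 5.43, 5.13 and 5.01 in the B6 controls and 4.45, 4.56, 4.29, 4.71 and 4.43 in the D2 controls. The groups did not overlap: the highest D2 control was below the lowest B6 control. The means were 5.28 ± 0.19 (SD, n = 5) and 4.49 ± 0.16 (SD, n = 5), a difference of -0.79 (SE 0.16; 1.73-fold lower in D2; limma, adjusted p = 0.00117).

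Cd8a, which encodes the alpha chain, had the same direction with a smaller difference and was not called. Its log2 CPM was 4.45, 4.44, 4.75, 4.15 and 4.53 in the B6 controls and 3.95, 4.13, 4.21, 4.35 and 3.95 in the D2 controls. A pair of D2 controls lay above the lowest B6 control. The difference was -0.35 (SE 0.20; limma, adjusted p = 0.287).

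Cd4 encodes the helper co-receptor, and it went the other way. Its log2 CPM was 4.62, 4.52, 4.62, 4.23 and 3.94 in the B6 controls and 5.06, 4.88, 4.57, 5.26 and 4.96 in the D2 controls. Only the lowest D2 control fell within the B6 range. The difference was 0.56 (SE 0.19; 1.48-fold; limma, adjusted p = 0.0437).

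Among the CD3 chains, which carry the T cell receptor to the surface, Cd3g differed most clearly. Its log2 CPM was 4.90, 4.92, 5.09, 4.81 and 4.56 in the B6 controls and 5.31, 5.15, 5.23, 5.72 and 5.32 in the D2 controls. Every D2 control was above every B6 control. The difference was 0.49 (SE 0.17; 1.40-fold; limma, adjusted p = 0.05001). The estimate for Cd3d was 0.35 (SE 0.18) and that for Cd3e 0.82 (SE 0.47), and neither was called (limma, adjusted p = 0.198 and 0.269). In all, 2 of 10 members, Cd8b1 and Cd3g, had groups that did not overlap, while 12.0% of all genes did.

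Lck, the kinase that phosphorylates the CD3 chains, was 6.44, 6.11, 6.49, 5.93 and 5.82 on the log2 CPM scale in the B6 controls. In the D2 controls it was 6.46, 6.50, 6.71, 6.95 and 6.61. Of the 5 D2 controls 4 lay above the B6 range. The difference was 0.49 (SE 0.19; 1.40-fold; limma, adjusted p = 0.0817), and the call was lost without B6 control replicate 5 (0.40).

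Il7r encodes the alpha chain of the interleukin-7 receptor. Its log2 CPM was 6.12, 5.88, 6.14, 5.80 and 5.72 in the B6 controls and 5.38, 5.54, 5.29, 5.89 and 5.19 in the D2 controls. All but 1 of the D2 controls were below the lowest B6 control. The difference was -0.47 (SE 0.18; 1.39-fold lower; limma, adjusted p = 0.0693). Estimates for the naive-cell transcription factors were close to 0, at 0.04 (SE 0.44) for Tcf7 and -0.02 (SE 0.21) for Lef1.

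By an exact two-sided permutation test over mice, the same comparison gave p = 0.00794 for Cd8b1 and for Cd3g, the smallest value that 5 against 5 mice can give. The exact p was 0.0159 for Lck, 0.0238 for Cd4 and Cd8a, and 0.0317 for Cd3d and Il7r. After Benjamini-Hochberg adjustment over the 50 such tests (10 members in 5 comparisons) the lowest value was 0.198.

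The strain calls on single members depended on how libraries were scaled. When values were scaled to the total of reads without the authors' composition adjustment, 1 of 10 members (Cd4) was called, and the difference of Cd8b1 was -0.62 and no longer called. On that scale the median of all genes moved from 0.01 to 0.18, and the genes called went from 1960 higher and 1494 lower to 2424 higher and 822 lower. Relative to 4 pan-leukocyte genes, the split was 1419 higher and 1694 lower, with 6 members called. The ratio of adjusted library size to reads was 0.903 to 1.19 (median 0.986) in B6 controls and 0.877 to 1.53 (median 1.15) in D2 controls. The part of red cell content in these differences was not tested.

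**Figure D2:**
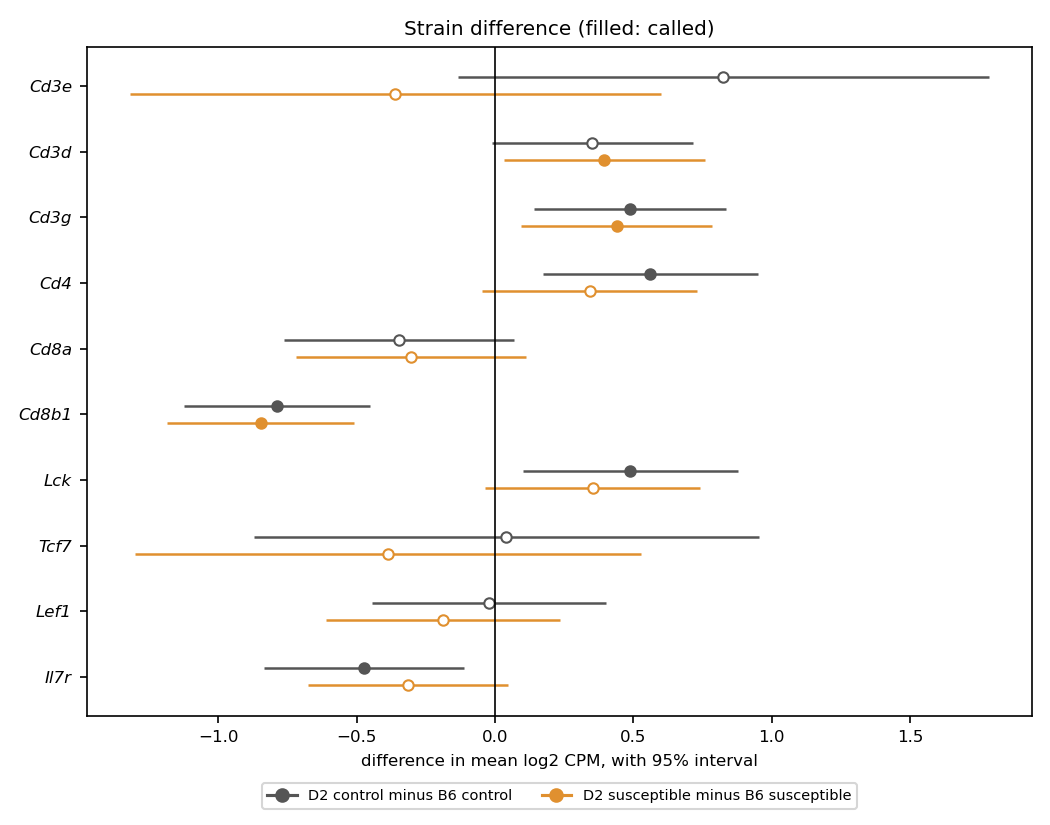
Difference in log2 CPM between D2 and B6 (x axis, D2 minus B6) of each member (y axis), in control mice and in susceptible mice, with 95% intervals from limma as bars and called members as filled points. Cd8b1 is the member farthest below 0 in both, at -0.79 in controls and -0.85 in susceptible mice, and Cd3g, Cd3d, Cd4 and Lck lie above 0 in both.

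The susceptible mice gave a second strain comparison in other animals, added after the control comparison had been seen. Of the 10 members 3 were called, against a background of 23.7% of all genes (11.3% higher, 12.4% lower). Cd8b1 was 5.10, 5.63, 4.76, 5.37 and 5.39 in B6 susceptible mice and 4.49, 4.51, 4.26, 4.48 and 4.28 in D2 susceptible mice, on the log2 CPM scale. Again every D2 mouse was below every B6 mouse. The difference was -0.85 (SE 0.16; 1.80-fold lower in D2; limma, adjusted p = 0.000542), with p = 0.00794 by the exact permutation test, the smallest possible. Cd8b1 was the 1 member of 10 without overlap, against 12.3% of all genes. Cd3g was higher by 0.44 (SE 0.17, limma, adjusted p = 0.0884) and Cd3d by 0.40 (SE 0.18, limma, adjusted p = 0.1565). The call of Cd3g was lost without B6 susceptible replicate 3 (0.35) and with a term for the animal name prefix (0.50). No prefix was shared between the strains, so that term cannot adjust a strain difference, here or for Cd3d. That of Cd3d was lost without B6 susceptible replicate 1 (0.26) or 3 (0.28) or D2 susceptible replicate 1 (0.36) or 2 (0.38), with the lettered groups (0.33), with sample weights (0.28), with the prefix term (0.43) and in a fit of the compared groups alone (0.40). Cd4 (0.34), Lck (0.35) and Il7r (-0.31) had the signs they had in controls and were not called. Without B6 susceptible replicate 2, 5 members were called, with Cd4 (0.46) and Lck (0.43) added.

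Differences between 2 members within a mouse are free of library scaling. Cd4 minus Cd8b1 on the log2 CPM scale was between -1.63 and -0.49 in the 15 B6 mice and between 0.04 and 0.62 in the 10 D2 mice. No B6 mouse reached the D2 range: Cd8b1 had the higher CPM in every B6 mouse and Cd4 in every D2 mouse. Mean values were -0.95 ± 0.27 (SD, n = 15) and 0.38 ± 0.17 (SD, n = 10). The ratios were chosen after the control comparison had been seen, so among the control mice the separation is partly built in. The ratios with Cd8b1 were therefore also tested in the susceptible mice, which were other animals. In those mice Cd8b1 alone already separated the strains, so these tests are not independent of that result. There the strains differed in Cd4 minus Cd8b1 by 1.19 (exact two-sided permutation test, p = 0.00794, n = 5 per group, the smallest possible). Cd4 minus Cd8a overlapped between strains, at -0.68 to 0.89 in B6 and 0.36 to 1.11 in D2 mice. How many pairs of genes separate the strains was not counted.

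The CD8 chains also differed from each other. Cd8a minus Cd8b1 was -0.85 ± 0.23 (SD, n = 15) in B6 and -0.37 ± 0.15 (SD, n = 10) in D2 mice. The ranges overlapped, with -1.38 to -0.49 in B6 and -0.57 to -0.08 in D2 mice. In the susceptible mice the strains differed by 0.54 (exact two-sided permutation test, p = 0.00794, n = 5 per group). Lck minus Il7r was 0.09 to 0.92 in the B6 mice and 0.96 to 1.66 in the D2 mice, again without overlap. The strain differences of Lck (0.49) and Il7r (-0.47) in controls had been seen when this pair was chosen. Its separation is thus partly built in, and this last ratio is given without a test.

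**Figure D3:**
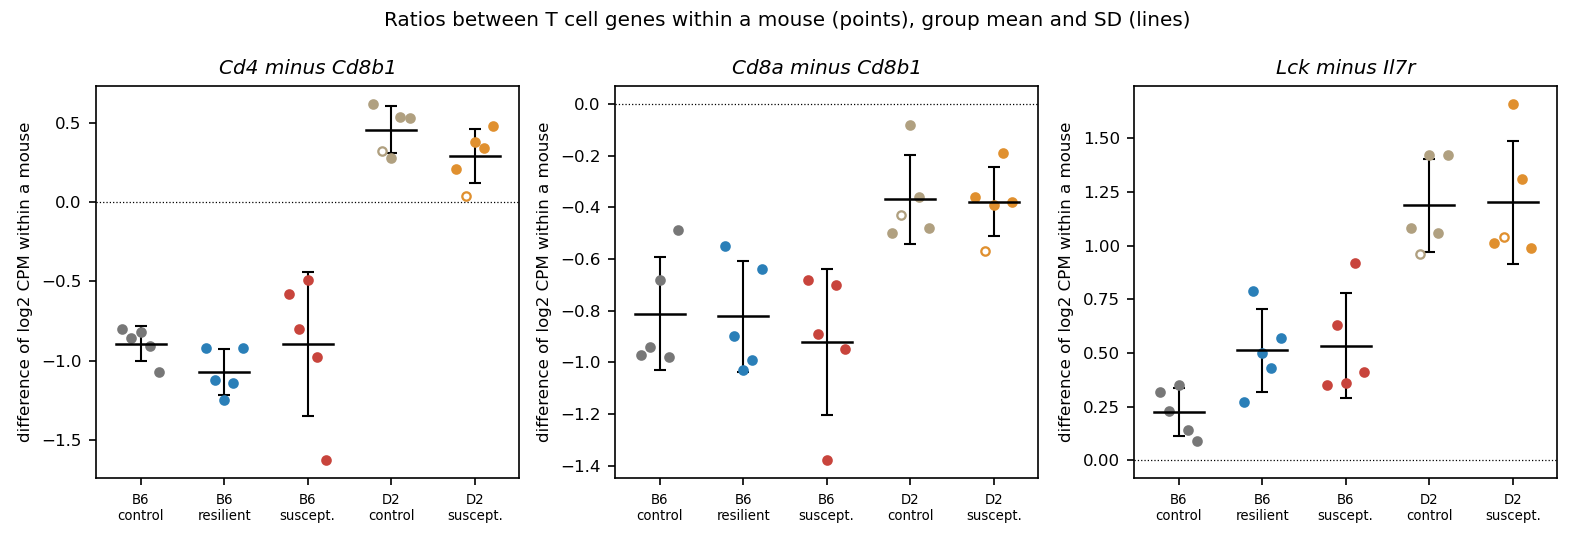
Differences between pairs of members within each mouse (y axes, log2 CPM of the first minus log2 CPM of the second), by group (x axes), with 1 point per mouse and the group mean and SD. Cd4 minus Cd8b1 is at most -0.49 in every B6 mouse and at least 0.04 in every D2 mouse. For Lck minus Il7r the B6 resilient (0.27 to 0.79) and susceptible mice (0.35 to 0.92) lie mostly above the B6 controls (0.09 to 0.35).

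Reads of both strains were aligned to GRCm38, an assembly of a B6 substrain. Differences between strains in expression and in how well reads align therefore cannot be told apart for single genes, members or others.

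Between defeated and control mice at most 1 of the 10 members was called in a comparison. The B6 comparisons share the same control or resilient mice and are not independent of each other. In none of them, nor in D2, did any gene of the whole table pass an adjusted p of 0.05 in limma.

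In B6 resilient mice compared to B6 controls, all 10 members had a lower mean, with a median difference of -0.27 against 0.02 over all genes, though Cd3e (0.13) and Cd3g (0.043) were above 0 without resilient replicate 1. That median was -0.06 without resilient replicate 1 and -0.42 without resilient replicate 5. Other lists also lay to 1 side: all 10 NK cell markers (median -0.34) and all 10 B cell markers (-0.07) had lower means, and all 10 platelet (0.56), 10 erythroid (0.22) and 11 neutrophil markers (0.15) higher ones, with 0 of them called. Their part in the members' difference was not tested. With total-read scaling the medians of members and of all genes were -0.45 and -0.16. Of the 10, 1 was called, Il7r, against a background of 2.11% of all genes (0.848% higher, 1.26% lower), and 290 of all genes had an unadjusted p under 0.05. Il7r was 5.08, 5.14, 5.40, 5.70 and 6.08 in resilient mice, on the log2 CPM scale, against the 5.72 to 6.14 of the controls. Of the 5 resilient mice 4 lay below every control, and the highest was within the control range. The difference was -0.45 (SE 0.18; 1.37-fold lower; limma, adjusted p = 0.9855).

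Tcf7, which encodes TCF-1, was 1.42, 2.06, 1.91, 2.67 and 2.85 in resilient mice and 2.62, 4.07, 3.42, 3.00 and 2.36 in controls. The upper 2 resilient mice overlapped the lower controls. The difference was -0.91 (SE 0.44; limma, adjusted p = 0.9855), with a 95% interval of -1.83 to 0.00, and it was not called. It was called with a term for the animal name prefix, with sample weights (-0.84), with quantile normalization (-0.94), in a fit of the compared groups alone (-0.91) and relative to pan-leukocyte genes (-0.86). Lef1 (-0.37, SE 0.21) and Cd4 (-0.36, SE 0.19) came next, and the other 6 estimates lay between -0.35 (Cd3e) and -0.11 (Cd3d). No member had groups without overlap, against 0.26% of all genes.

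The resilient mice spread widely among themselves. Resilient replicate 1 had the lowest value of its group for 10 of 10 members, and replicate 5 the highest for 9 of 10. The summed level of the members was 183 CPM in replicate 1 and 392 CPM in replicate 5. Red cell and leukocyte content moved with this: the 10 erythroid markers summed to 276733 CPM in replicate 1 and 64622 CPM in replicate 5, and the 4 pan-leukocyte genes to 1135 and 2075 CPM. Their part in the result was not tested. The Il7r call was lost without resilient replicate 1 (-0.35), without resilient replicate 2 (-0.37) and on total-read scaling (-0.64). Without resilient replicate 5, 4 members were called lower: Il7r, Cd4 (-0.51), Tcf7 (-1.08) and Lef1 (-0.50). The count over all genes rose from 276 to 1126 there, of which 459 were lower. Without B6 control replicate 5, 3 were called (Il7r, Cd4 and Tcf7), and without B6 control replicate 1 or resilient replicate 4, 2 were called (Il7r and Tcf7).

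In B6 susceptible mice compared to B6 controls, 0 of 10 members were called, against a background of 4.5% of all genes (2.98% higher, 1.52% lower), with 610 genes at an unadjusted p under 0.05 in limma. Members were split, with 3 estimates above and 7 below 0 and a median of -0.02. The highest was that of Cd3e, at 0.73 (SE 0.47; limma, adjusted p = 0.9675). Its log2 CPM was 2.66, 2.14, 0.79, 0.94 and 1.18 in susceptible mice and 0.00, 1.72, 1.15, 0.97 and 0.21 in controls, and the groups overlapped. The lowest was that of Il7r, at -0.31 (SE 0.18; limma, adjusted p = 0.9675). Il7r was 5.46, 5.83, 5.46, 5.62 and 5.73 in susceptible mice, of which 3 lay below every control (exact two-sided permutation test, p = 0.0397, adjusted over the 50 tests 0.248). Intervals were narrower for the members with more reads, as for Cd8b1 (-0.02, 95% interval -0.36 to 0.31) and Lck (0.00, -0.39 to 0.38). No member had groups without overlap, against 0.321% of all genes. In the same mice 8 of 10 platelet markers were called higher, and the summed platelet level was 4707 to 13365 CPM against 1986 to 7181 CPM in controls. All 10 NK cell (median -0.28), 9 of 10 B cell (-0.21) and 7 of 10 monocyte markers (-0.11) had lower means. Of 11 neutrophil markers 9 had higher means (0.28), as did 6 of 10 erythroid markers (0.07). None of the markers on these other lists was called, and their part was not tested.

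In B6 susceptible compared to resilient mice, all 10 estimates were above 0, with a median of 0.17 against -0.01 over all genes, though relative to pan-leukocyte genes Cd3d (-0.0505) and Cd8a (-0.015) were below 0. That median was 0.03 without resilient replicate 1, 0.09 without susceptible replicate 2, 0.32 without resilient replicate 5 and 0.28 without susceptible replicate 3. Of the 10, 1 was called, Cd3e, against a background of 2.03% of all genes (1.12% higher). Cd3e was -1.45, 0.08, 1.42, 0.98 and 1.28 in the resilient mice, and the 5 susceptible values, 0.79 to 2.66, overlapped the upper 3 of them. The difference was 1.08 (SE 0.47; 2.11-fold; limma, adjusted p = 0.9998). The lowest resilient mouse, replicate 1, had 3 reads of Cd3e, and without it the difference was 0.60 and not called. The call was equally lost without resilient replicate 2 (0.98), susceptible replicate 1 (0.80) or susceptible replicate 2 (0.93). Tcf7 (0.89, SE 0.44) and Lef1 (0.38, SE 0.21) were not called. Leaving out resilient replicate 5 gave 4 calls (Cd3e, Cd4, Tcf7 and Lef1), leaving out susceptible replicate 3 or 5 gave 3, and leaving out resilient replicate 4 gave 2, all with Tcf7 among them.

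In D2 susceptible mice compared to D2 controls, 0 of 10 members were called, against a background of 1.57% of all genes, with 225 genes at an unadjusted p under 0.05 in limma. Of the 10 estimates 9 were below 0, with a median of -0.15 against -0.02 over all genes, though with the lettered groups Cd3e (0.021), Tcf7 (0.20) and Lef1 (0.0008) were above 0. That median was -0.05 with the lettered groups, -0.04 relative to pan-leukocyte genes and without D2 control replicate 4, and -0.07 without D2 susceptible replicate 3. In the same mice all 11 neutrophil (median -0.49) and all 10 platelet markers (-0.39) had lower means. So did 9 of 10 monocyte (-0.19) and 8 of 10 NK cell markers (-0.26). All 10 erythroid (0.26) and 9 of 10 B cell markers (0.20) had higher means. None of these markers was called. Their part in the members' difference was not tested. Cd4 was 4.70, 4.55, 4.64, 4.82 and 4.76 in susceptible mice, where 1 mouse fell below the 4.57 to 5.26 of the controls. The difference was -0.25 (SE 0.19; limma, adjusted p = 0.9988). Cd3e (-0.45, SE 0.47) and Tcf7 (-0.45, SE 0.44) had larger estimates with wide errors. The 95% interval for Cd8b1 was -0.42 to 0.25 and that for Cd3g -0.33 to 0.36. With the lettered groups of the 2 mice, and without these mice, 0 of 10 members were called as well, while the count over all genes went from 206 to 890 and 519.

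Whether defeat acted differently in the strains was tested as an interaction, the susceptible minus control difference in D2 minus that in B6. Of the 10 members 0 were called in limma, against a background of 5.37% of all genes, of which 704 had an unadjusted p under 0.05. The farthest from 0 was Cd3e, at -1.18 (SE 0.66; limma, adjusted p = 0.957), and it was called without B6 control replicate 2 (-1.41) or without D2 control replicate 1 (-1.39). For the remaining 9 members estimates lay between -0.43 (Tcf7) and 0.16 (Il7r).

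**Figure D4:**
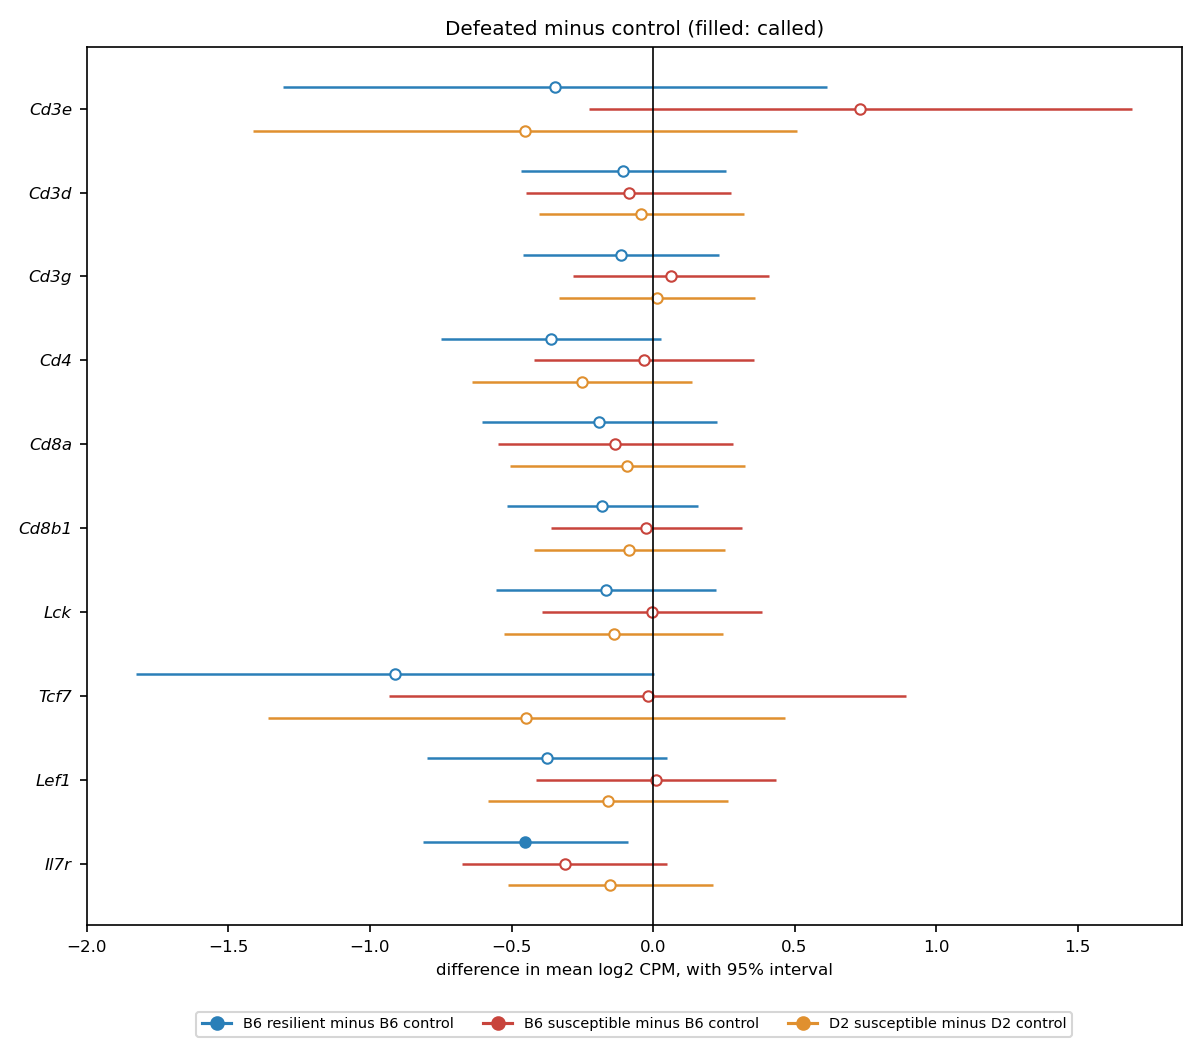
Difference in log2 CPM (x axis) of each member (y axis) in the 3 comparisons of defeated with same-strain control mice, with 95% intervals from limma as bars and called members as filled points. All B6 resilient estimates lie below 0, from -0.91 for Tcf7 to -0.11 for Cd3d, and the bars of Cd3e and Tcf7 are the widest.

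Other genes of the T cell programme gave context for the strain difference. The counts are to be read against the 15% of all genes called higher and 11.4% called lower. Of the 7 receptor constant genes 2 were called higher in D2 controls and 0 lower. Trdc, the constant gene of the delta chain carried by gamma-delta T cells, rose from 0.29 ± 0.40 (SD, n = 5) in B6 controls to 4.91 ± 0.58 (SD, n = 5) in D2 controls, on the log2 CPM scale. That is a difference of 4.62 (SE 0.35; limma, adjusted p = 3.44e-10), and in susceptible mice it was 3.88 (SE 0.35; limma, adjusted p = 8.16e-09). The gamma chain constant genes were low in both strains and rose less or not at all. In B6 and D2 controls Tcrg-C1 was at -0.30 and -0.38, Tcrg-C2 at -0.39 and -0.22, and Tcrg-C4 at -0.59 and 0.42. Trbc1, a constant gene of the beta chain, rose by 0.44 (SE 0.13; limma, adjusted p = 0.0254), while the alpha chain constant gene Trac was at 0.22 (SE 0.16) and not called.

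Of 17 T cell receptor signalling genes, 4 were called higher in D2 controls and 0 lower, among them the kinase gene Fyn (0.44) and the adaptor gene Skap1 (0.46). Cd247 (0.16) and Zap70 (0.15), the CD3 zeta chain and the kinase that binds it, were not called. Of 12 surface and costimulation genes 3 were called higher and 1 lower. Cd27 (0.65) and Cd5 (0.57) rose, Thy1 fell by 0.56 on the log2 scale, and Cd2 was at -0.16. Of 11 transcription factors 1 was called, Foxo1, which fell by 0.42 on the log2 scale, and Bcl11b was at 0.05. Of 10 homing genes 1 was called higher and 0 lower, and the lymph node homing gene Ccr7 was at -0.17 and was not called. Of 6 activation genes 1 was called, Cd69, which fell by 0.69 on the log2 scale, and Cd44 was at 0.23.

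Across the defeat comparisons few genes of these lists were called. In B6 resilient mice, where 1.26% of all genes were called lower, 3 of 12 surface genes were, led by Cd40lg (-0.75) and Cd6 (-0.45). Of 10 homing genes 2 were called lower as well, among them Ccr9 (-0.54). The receptor constant, signalling, transcription factor and activation lists had 0 called there. In B6 susceptible mice compared to controls, where 4.5% of all genes were called, the calls were the adaptor gene Lat (0.30), Cd44 (0.46) and Cd69 (-0.64). Compared to resilient mice, where 2.03% of all genes were called, they were Lat (0.29), the costimulatory receptor gene Cd28 (0.34) and Igfbp4 (0.41). In these susceptible mice 8 of 10 platelet markers were called higher than in controls. The part of platelet transcripts in these calls was not tested. In D2 susceptible mice 0 of the 63 genes on these 6 lists were called. None of the defeat calls had an adjusted p under 0.05 in limma.

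Markers of other blood cells were compared between D2 and B6 controls in the same way, where 15% of all genes were called higher and 11.4% lower. In D2 controls 9 of 10 B cell markers were called lower, with Cd22 at -1.65 and Cd79a at -0.63. Of 10 NK cell markers 6 were called lower, with Klra8 at -7.13 and Klrb1c at -1.27, while Ncr1 was at 0.44. Klra8 averaged 3.16 log2 CPM in B6 controls and -3.98 in D2 controls, where it was close to no reads. Whether Klra8 differed in expression or in how its reads align cannot be told apart, so its value is no measure of NK cell content. Of 10 platelet markers 6 were called higher, of 11 neutrophil markers 2, and of 10 monocyte markers 3, with 1 lower. Of 10 erythroid markers 2 were called higher and 4 lower. Of the 4 pan-leukocyte genes 0 were called in either direction. The part of other blood cells in the calls on the T cell lists was not tested.

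The members varied together across mice, with exceptions in the CD3 cluster. After centring each gene on its group means, Pearson's r between pairs of members over the 25 mice ran from -0.04 (Cd3d with Tcf7) to 0.91, with a median of 0.66 over all pairs. These mice share the library scaling and the red cell content, so r values between any blood genes are not free of both. The median r with the other members was highest for Cd8b1 (0.76) and Lck (0.74), and lowest for Cd3e (0.48) and Tcf7 (0.40). The adjacent genes Cd3g and Cd3d had r = 0.84, whereas Cd3e and Cd3d, whose products pair with each other, had r = 0.13.

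**Figure D5:**
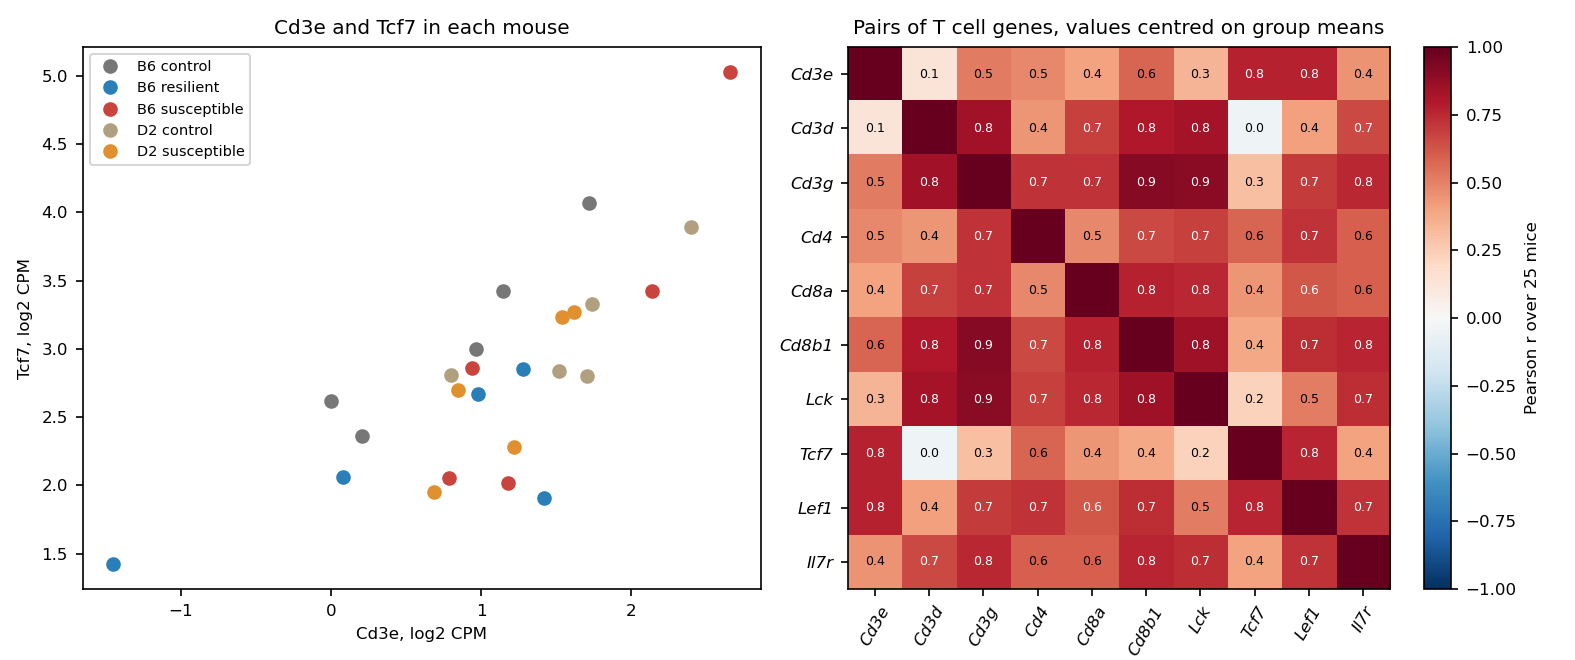
Left, log2 CPM of Cd3e (x axis) and Tcf7 (y axis) in each of the 25 mice, coloured by group. Right, Pearson's r of each pair of members over these mice after centring on group means (colour scale, values printed to 1 decimal), where Cd3d has its lowest values with Cd3e (0.13) and Tcf7 (-0.04).

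Within strains, Cd3e was set against 16 other readouts of the same mice in each strain, 32 relations in all. In the 15 B6 mice it varied with Lef1 (Pearson's r = 0.86, permutation p = 5e-05, adjusted p = 0.0016, Spearman's rho = 0.81, permutation p = 0.00039). Without the 2 mice farthest from the median r was 0.75. It also varied with Tcf7 in B6 (r = 0.76, permutation p = 0.00148, adjusted p = 0.0237, rho = 0.59, permutation p = 0.0226, without 2 mice 0.53). In the 10 D2 mice r with Tcf7 was 0.83 (permutation p = 0.00392, adjusted p = 0.0418), rho was 0.81 (permutation p = 0.00743), and r was 0.56 without 2 mice. The 2 relations with Tcf7 missed an adjusted 0.05 for rho (0.105 and 0.0623). The other 29 relations missed it for r, among them Cd3d in B6 (r = 0.15, permutation p = 0.591) and in D2 (r = -0.05, permutation p = 0.896). The lymphocyte miRNA miR-150-5p, from the small RNA libraries of the same mice, had r = 0.64 in B6 (permutation p = 0.0078, adjusted p = 0.0602) and 0.68 in D2 (permutation p = 0.029, adjusted p = 0.0928). On deviations from group means, r in B6 was 0.88 for Lef1, 0.78 for the monocyte gene Csf1r and 0.77 for Tcf7 (permutation, adjusted p = 0.00064, 0.00784 and 0.00971). In B6 miR-150-5p (r = 0.71, permutation, adjusted p = 0.025) and the red cell gene Alas2 (r = -0.69, permutation, adjusted p = 0.0277) passed as well. Tcf7 also passed in D2 on these deviations (r = 0.79, permutation, adjusted p = 0.0347).

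Among all non-member genes, those most like the mean of the 10 members over the 25 mice, by r after centring on group means, were Themis (0.92), Ankrd44 (0.91), Dock2 (0.91), Spn (0.90) and Kcnab2 (0.88). Without Cd3e and Tcf7 in the mean, a choice made after seeing their spread, the first 5 were Zap70 (0.93), Themis (0.92), Nsg2 (0.90), Emg1 (0.89) and Klk8 (0.89). With the mean of all 10 members, r was 0.66 for the B cell gene Cd79a, 0.61 for the monocyte gene Csf1r, 0.28 for the neutrophil gene S100a8, 0.24 for the NK cell gene Ncr1, -0.49 for the platelet gene Pf4 and -0.81 for Alas2, the red cell enzyme of haem synthesis. With the shortened mean these values were 0.63, 0.37, 0.05, 0.21, -0.43 and -0.68. Across mice, then, the mean of the members was lower where Alas2 was higher. Single members within strains were less clear. Cd3d with Alas2 had r = -0.42 in B6 and 0.14 in D2 mice (permutation, adjusted p = 0.276 and 0.881).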

How the data were processed

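RNA of trunk blood from 25 male mice was sequenced by the authors after ribosomal and globin depletion, as stranded single-end libraries. They aligned reads with STAR to GRCm38, counted exon reads with HTSeq, kept genes expressed in enough samples and deposited log2 CPM values computed with limma's voom. No batch correction was stated for blood. The strand setting of the counting is not given in the sources used here. Whole reads were recovered from the deposited log2 CPM for 100.0% of values within 0.0001 of a whole number, which gave the depth of 9751603 to 15878495 reads per mouse.

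Groups followed the labels of the deposit. All 25 mice and 5 groups entered 1 limma fit (limma 3.58.1, R 4.3.3) on the deposited log2 CPM values with a mean-variance trend. Limma p-values set a difference of group means against the spread between mice within groups, pooled over the 5 groups and moderated across genes. Single values were compared by exact permutation tests over mice, and correlations by 100000 permutations (Python 3.11.15, numpy 2.4.6). The fit was checked on simulated data. The members and the other gene lists were chosen with earlier results of these data known. All members were named, and of each other list the first 2 genes and at most 2 called genes of smallest p. The gamma chain constant genes were named in addition. Some results on single genes of these lists are not reported here. Alternatives covered normalization, filters, sample weights, grouping, pan-leukocyte scaling and leaving out each mouse. Total-read scaling, the ratios, the strain comparison in susceptible mice, the Cd3d anchor and the shortened likeness mean were added after seeing the data. AGO2-bound RNA of the bed nucleus of the stria terminalis was used as values only. Blood miRNA values, which the authors deposited as log2 CPM too, gave miR-150-5p. Promoter windows came from RefSeq on GRCm38.p6.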

Additional observations from a re-analysis of the deposited data

Results flagged for a closer look

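For each of the 10 members in each of the 5 groups, the distance of the highest and of the lowest mouse to its nearest neighbour was compared with the range of the group. Of the 50 groups 1 passed Dixon's 95% critical value of 0.71, while chance passes about 1 in 20 groups. Cd8a in B6 susceptible replicate 3 was 3.38 on the log2 CPM scale, and the next mouse of the group was at 4.42, a gap of 0.762 of the range. In the same mouse Cd8b1 was 4.76, also the lowest of the group, while Cd3e (0.79) and Tcf7 (2.05) were low but within reach of their neighbours.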

How the results depend on the processing

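Changing 1 choice at a time left 1235 values of single members with the same direction and the same side of the threshold, while 54 became called, 29 lost the call and 102 changed sign. Of the counts of called members and of tests passed, 113 stayed within 1.5 times and 42 moved. The cause of these changes was not tested, except that leaving out a mouse or a group leaves fewer samples.

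In B6 resilient mice compared to controls, where 1 member was called, 3 were called with sample weights or relative to 4 pan-leukocyte genes, 2 with quantile normalization, in a fit of the compared groups alone or with a term for the animal name prefix, and 0 with total-read scaling. Leaving out single mice gave 0 to 4. In B6 susceptible mice compared to controls 1 was called, against 0, in a fit of the compared groups alone (Il7r) and relative to pan-leukocyte genes (Il7r). Between B6 susceptible and resilient mice, where 1 was called, 0 were called with sample weights, with voom and TMM on recovered reads, when genes with a mean under 2 log2 CPM were left out (Cd3e among them), in a fit of the compared groups alone and with total-read scaling. With quantile normalization or the prefix term 2 were called, relative to pan-leukocyte genes 3, and without single mice 0 to 4. In D2 mice 1 was called, against 0, with sample weights (Cd4). Between D2 and B6 controls, where 5 were called, 8 were called in a fit of these groups alone and 1 with total-read scaling. For the interaction 1 was called, against 0, in a fit of the 4 groups alone (Cd3e, -1.18), and 0 to 1 without single mice, with 1 without B6 control replicate 2 or D2 control replicate 1. Between D2 and B6 susceptible mice, where 3 were called, 1 was called with the prefix term and 5 relative to pan-leukocyte genes, with 2 to 5 without single mice. The prefix term cannot adjust these strain differences, because no prefix was shared between the strains. The exact tests of single members had 8 of 50 at p under 0.05, and 5 with total-read scaling. Relations of Cd3e passing the adjusted threshold rose from 3 to 6 on deviations from group means, and 6 passed with Cd3d in place of Cd3e. In D2 mice 206 of all genes were called by the labels, 890 with the lettered groups, 519 without the 2 mice and 992 with sample weights, with 489 without D2 control replicate 2.

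Signs turned for members that were not called. For B6 susceptible against control, sample weights gave 0.051 for Cd3d, 0.054 for Cd8b1 and 0.084 for Lck. Quantile normalization gave -0.029, pan-leukocyte scaling -0.0064 and total-read scaling -0.14 for Lef1, and total-read scaling -0.0897 for Cd3g. For B6 susceptible against resilient, the prefix term gave -0.013 for Cd3d, and pan-leukocyte scaling -0.0505 for Cd3d and -0.015 for Cd8a. For D2 susceptible against control, the lettered groups gave 0.021 for Cd3e, -0.0298 for Cd3g, 0.20 for Tcf7 and 0.0008 for Lef1, and leaving out the 2 mice gave -0.0089 for Cd3g. The prefix term gave 0.028 for Cd3d, pan-leukocyte scaling 0.059 for Cd3d, 0.0092 for Cd8a and 0.017 for Cd8b1, and total-read scaling -0.039 for Cd3g. For D2 against B6 controls, Tcf7 was -0.28 with the lettered groups, -0.15 without the 2 mice and -0.017 with pan-leukocyte scaling, and Lef1 was 0.083 with sample weights, 0.0036 with the prefix term and 0.15 with total-read scaling. The value with the prefix term cannot be read as an adjusted strain difference, because no prefix was shared between the strains. For the interaction, Cd3d was -0.088 with the lettered groups, -0.049 without the 2 mice and -0.10 with sample weights, and Tcf7 was 0.21 with the lettered groups. There Cd3g was 0.0073 with quantile normalization, 0.0147 with the prefix term, 0.069 with pan-leukocyte scaling and 0.051 with total-read scaling, and Cd8b1 was 0.019, 0.057 and 0.039 with quantile, pan-leukocyte and total-read scaling.

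Without single mice, members that changed sign had these ranges. For B6 resilient against control they were -0.59 to 0.13 for Cd3e and -0.26 to 0.043 for Cd3g. For B6 susceptible against control they were -0.18 to 0.046 for Cd3d, -0.042 to 0.15 for Cd3g, -0.15 to 0.12 for Cd4, -0.24 to 0.10 for Cd8a, -0.12 to 0.097 for Cd8b1, -0.098 to 0.083 for Lck, -0.51 to 0.24 for Tcf7 and -0.10 to 0.13 for Lef1. For B6 susceptible against resilient they were -0.071 to 0.15 for Cd3d, -0.048 to 0.29 for Cd8a and -0.0040 to 0.28 for Cd8b1. For D2 susceptible against control they were -0.12 to 0.052 for Cd3d and -0.034 to 0.11 for Cd3g. For D2 against B6 controls they were -0.15 to 0.29 for Tcf7 and -0.13 to 0.085 for Lef1. For the interaction they were -0.088 to 0.14 for Cd3d, -0.13 to 0.058 for Cd3g, -0.20 to 0.15 for Cd8a, -0.18 to 0.036 for Cd8b1 and -0.69 to 0.060 for Tcf7.

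No paired analysis was possible because the labels of the blood mice carry animal names and no replicate number shared between groups. With 5 mice per group, a difference between groups had an SE of 0.47 for Cd3e and 0.44 for Tcf7, against 0.16 to 0.21 for the other members. The few reads of Cd3e, 3 in the lowest mouse, limit that member most.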

Other observations

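RNA bound to AGO2 in the brain, from the bed nucleus of the stria terminalis, was deposited as 14 B6 samples, separate from the blood samples. Of the 10 members 5 were listed there: Cd4, Lck, Tcf7, Lef1 and Il7r. Cd4 was 5.34 ± 0.39 (SD, n = 5) log2 CPM in controls, 4.58 ± 0.99 (SD, n = 5) in resilient and 4.39 ± 1.01 (SD, n = 4) in susceptible mice. Lef1 was nearly level, at 5.91, 5.90 and 5.95. Tcf7 was 4.46, 4.07 and 4.12 in the same order. Lck had 4 to 29 reads per sample, with means of 0.45, 0.73 and 1.42, and Il7r had 0 to 9 reads. No test was made on these values. They come from immunoprecipitated brain RNA, where these genes need not come from T cells, so their levels were not set against blood.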
